A study of Mus musculus with 4 samples.

Results

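Neutrophils of the mouse distal jejunum were examined 18.5 h after intestinal ischemia and reperfusion (I/R), the injury in which the superior mesenteric artery is clamped and blood flow is then restored. A cell was counted as a neutrophil when at most 20% of its transcripts lay on mitochondrial genes, S100a8 and S100a9 together had 5 or more unique molecular identifiers (UMIs, each standing for 1 captured RNA molecule), Csf3r or Cxcr2 had at least 1 UMI, and Csf1r, Epcam and Cd79a had 0 UMIs. The rule gave 56 neutrophils among 10376 cells under the mitochondrial limit, which is 0.540% of these cells and 0.0959% of their UMIs, out of 22679 barcodes in all. The cells were thus chosen by the UMIs of these 7 genes and by the mitochondrial share, whose values are given as a description.

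Each of the 4 mice gave 1 library of 10x Genomics 3′ RNA sequencing. The 2 Control mice were Foxc1fl/fl;Foxc2fl/fl and the 2 EC-Foxc-DKO mice were Cdh5-CreERT2;Foxc1fl/fl;Foxc2fl/fl. The study’s methods describe adult male mice given tamoxifen before surgery, and Cdh5-CreERT2 directs the deletion of Foxc1 and Foxc2 to endothelial cells (ECs), so that the neutrophils are not the cells in which the genes were deleted. Mice were perfused through the heart to clear the blood, and the digested tissue was loaded with no sort described.

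Neutrophils are short-lived granulocytes made in the bone marrow. They leave the blood through activated vessel walls in response to chemokines, lipid mediators, complement fragments and bacterial peptides, and they act through stored granule proteins, an oxidase that makes reactive oxygen, and secreted cytokines. Their granule proteins are mostly transcribed in marrow precursors, whereas receptors and cytokines are transcribed in the mature cell. In I/R injury of the gut they are among the first leukocytes to enter the tissue.

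Neutrophils were spread unevenly over the mice. Control replicate 1 had 16 neutrophils, Control replicate 2 had 0, EC-Foxc-DKO replicate 1 had 16 and EC-Foxc-DKO replicate 2 had 24. As a share of the cells under the mitochondrial limit, this was 0.524% of 3054 cells (95% exact binomial interval 0.300 to 0.849%) in Control replicate 1 and 0.367% of 4364 cells (0.210 to 0.595%) in EC-Foxc-DKO replicate 1. EC-Foxc-DKO replicate 2 had the highest share, 1.11% of 2164 cells (0.712 to 1.65%), and its interval overlapped that of Control replicate 1. Its interval overlapped neither that of EC-Foxc-DKO replicate 1 nor that of Control replicate 2. In Control replicate 2, 0 of 794 cells allow a share of up to 0.378% when 3 cells are taken as the limit of a count of 0, and 0.464% by the same exact interval. The means were 0.262% in Control and 0.738% in EC-Foxc-DKO mice, a difference of 0.476 percentage points that did not exceed the spread between mice (exact two-sided permutation test, p = 0.667, n = 2 mice per group, for which the smallest p is 1 in 3). Among cells with a Ptprc UMI, the pan-leukocyte gene, the shares were 2.91%, 0%, 0.716% and 2.54% in the same order of mice, so that Control replicate 1 and EC-Foxc-DKO replicate 2 lay close together. Intervals and limits for counts of 0 cover counting error only.

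The mitochondrial limit removed many more cells of this kind from 1 library than it removed from the others. Of the barcodes over the limit, 39 in EC-Foxc-DKO replicate 2 met every other criterion, against 1 in each of the other 3 mice. The neutrophils that remained in that mouse had a median mitochondrial share of 16.9%, against 3.20% in Control replicate 1 and 3.35% in EC-Foxc-DKO replicate 1, and 21 of its 24 cells were over 10%. With a limit of 10%, which left 3 neutrophils in that mouse, the difference in neutrophil share turned to -0.121 percentage points (p = 1.0 by the same exact test). Without any limit the counts were 17, 1, 17 and 63, which is 0.257%, 0.0276%, 0.231% and 1.24% of all barcodes in the order of Control replicates 1 and 2 and EC-Foxc-DKO replicates 1 and 2. The part of the mitochondrial share in the differences between mice was not tested.

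**Figure D1:**
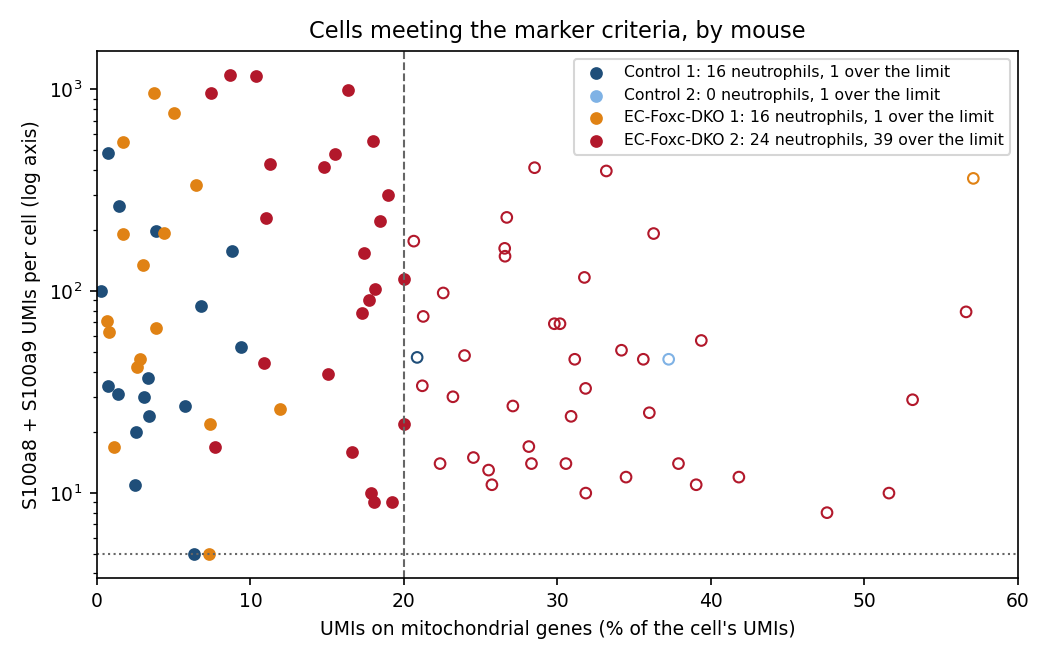
Each point is a cell that met the marker criteria, with the share of its UMIs on mitochondrial genes on the x axis (%) and its summed S100a8 and S100a9 UMIs on the y axis (log scale), colored by mouse; filled points are the 56 neutrophils and open points the 42 barcodes over the 20% limit (dashed line), and the dotted line marks 5 UMIs. Open points are nearly all from EC-Foxc-DKO replicate 2 (39 of 42), and the neutrophils of that mouse lie closer to the limit than those of the other mice.

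Few cells lay at the S100 minimum, whereas the other criteria left out more. At 4 UMIs of S100a8 and S100a9, just under the minimum, 1 further cell of EC-Foxc-DKO replicate 2 met the other criteria, and 2 neutrophils had exactly 5. Of 125 cells under the mitochondrial limit with 5 or more such UMIs, 41 had no Csf3r or Cxcr2 UMI, 35 of them in EC-Foxc-DKO replicate 2. Of 84 cells under the mitochondrial limit with enough S100 UMIs and a receptor UMI, 14 were left out for a Csf1r UMI, the receptor of monocytes and macrophages, and 19 for an Epcam UMI, the epithelial adhesion molecule, 5 of them for both. No such cell had a Cd79a UMI. The neutrophils of Control replicate 1 held a median of 2538.5 UMIs and 1127.5 genes, those of EC-Foxc-DKO replicate 1 held 2512.5 UMIs and 901.5 genes, and those of EC-Foxc-DKO replicate 2 held 1973.5 UMIs and 618 genes. Summed per mouse, this gave 48244, 40275 and 50940 UMIs, so that a gene at 1 UMI in a mouse is at about 20 to 25 counts per 1000000 (CPM, a gene's UMIs scaled to that many neutrophil UMIs in each mouse). All levels below are in CPM, in the order Control replicate 1, EC-Foxc-DKO replicate 1 and EC-Foxc-DKO replicate 2.

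S100a9 and S100a8, which encode the subunits of calprotectin, a zinc-binding antimicrobial protein complex, had the highest mean level over the 3 mice among the genes ranked, in cells that they had chosen. Both genes lie on chromosome 3 of GRCm38, the assembly that mm10 names (S100a8 at 90668978 to 90670035, S100a9 at 90692632 to 90695721). S100a9 was at 21453, 54922 and 88378 CPM and S100a8 at 10841, 31757 and 61347 CPM. Both were lowest in the Control mouse, where Cxcl2 and Fth1 were higher than either, and the median UMIs of S100a8 and S100a9 per cell were 35.5, 68.5 and 134.5 with single cells from 5 to 1181, so that cells of the 3 mice overlapped widely. Csf3r, the receptor of the granulocyte growth factor G-CSF, was at 1638, 1713 and 844 CPM, with UMIs in 15 of 16, 15 of 16 and 22 of 24 cells. Cxcr2, the receptor for CXC chemokines that draws neutrophils out of the marrow and into tissue, was at 1223, 1440 and 1355 CPM, with UMIs in 13 of 16, 15 of 16 and 22 of 24 cells, and hardly differed between the mice.

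The neutrophil label was checked on genes that the rule did not use. Of the neutrophil identity list, all 19 genes outside the rule had at least 1 UMI in these cells. Il1r2, the decoy receptor for interleukin-1, was at 1886, 2260 and 1610 CPM, Hdc, the enzyme that makes histamine, at 1596, 1912 and 1492 CPM, and G0s2, an inhibitor of fat breakdown, at 7669, 15667 and 9109 CPM. Stfa2l1, a stefin-like gene named here after its values were seen, was at 663, 695 and 825 CPM. Of all Stfa2l1 UMIs in the cells under the mitochondrial limit of the 4 mice, 84.3% lay in the 56 neutrophils, as did 63.9% of Retnlg, 52.6% of Acod1, 48.4% of G0s2, 44.4% of Hdc and 44.2% of Il1r2. Other genes of the list lay mostly outside these cells, among them Clec4e with 18.5%, Fpr2 with 17.7%, Clec4d with 15.5%, Mmp8 with 15.1% and Slfn4 with 9.31% of their UMIs inside, and the median over the 19 genes was 27.1%. A defining surface marker of mouse neutrophils was nearly absent: Ly6g, the antigen by which these cells are usually stained, had 0, 0 and 1 UMI, although other cells of EC-Foxc-DKO replicate 2 under the limit held 2783 Ly6g UMIs, 89.7 CPM.

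Markers of most other cell types were at or near 0, with epithelial RNA as the exception. The 11 monocyte and macrophage markers (Cd68, Ly6c2 and C1qa highest) summed to 166, 372 and 216 CPM in the neutrophils, against 4559, 8780 and 7620 CPM in monocyte/macrophage cells of the same mice, which were themselves chosen with some of these markers. Adgre1, the macrophage antigen F4/80, had 0, 1 and 1 UMI. Pecam1 and Cdh5 and the other 3 endothelial markers had 0 UMIs, and the eosinophil, mast cell and B cell lists had at most 3, 1 and 2 UMIs in any mouse. The dendritic cell list had 2, 16 and 3 UMIs, led by Cd74, and the plasma cell list 5, 20 and 2, led by Igkc. The stroma list had 2, 6 and 3 UMIs, the erythroid list 2, 0 and 1, and the platelet list 4, 0 and 0. Epithelial RNA was present at a low level in nearly every cell: the 10 epithelial markers summed to 4249, 2880 and 2375 CPM, led by Fabp2 and Apoa1, against 88270, 74920 and 103500 CPM in all other cells of the same mice and 1312, 1086 and 892 CPM in their monocyte/macrophage cells. The neutrophils thus held more epithelial RNA per UMI than the monocyte/macrophage cells did in each of the 3 mice, and its part in the levels below was not tested. Only 4 neutrophils had fewer than 2 UMIs of that list. The T and NK cell list summed to 166, 0 and 1865 CPM, and 94 of the 95 UMIs of EC-Foxc-DKO replicate 2 lay in 1 cell, described below.

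The other genes among the 15 with the highest mean level, with mitochondrial and ribosomal protein genes left out, were Fth1 and Ftl1, the ferritin chains that store iron, Tmsb4x and Actb of the actin skeleton, Srgn, the core protein that packs granule contents, Tyrobp, the signaling adaptor of activating receptors, and Wfdc17, together with Cxcl2, Il1b, G0s2, Retnlg, Ifitm1 and Junb. Fth1 was at 28667, 31186 and 35316 CPM and differed little over the mice. Wfdc17, by contrast, was at 1264, 4966 and 7676 CPM, lowest in the Control mouse.

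Cytokine transcripts made up a large part of the neutrophil RNA. The 17 genes of the cytokine and chemokine list summed to 64710, 56310 and 44820 CPM, and 2 genes carried most of it. Cxcl2, the chemokine that binds CXCR2 on neutrophils themselves, was at 35238, 27883 and 22104 CPM with UMIs in 15 of 16, 14 of 16 and 24 of 24 cells. Il1b, the precursor of interleukin-1β, was at 21225, 21651 and 10542 CPM with UMIs in 16 of 16, 15 of 16 and 24 of 24 cells. In B cells, which should lack both genes and here give the background, 0.802% of 1372 cells had a Cxcl2 UMI and 0.583% an Il1b UMI. With every cell thinned to 500 UMIs the shares over the 3 mice were 90.5% for Cxcl2 and 96.7% for Il1b in neutrophils, against 0.119% and 0.0870% in B cells.

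Single cells differed widely in these cytokines. In Control replicate 1 a cell of 8592 UMIs, the only neutrophil over 3 times the median of its mouse, held 754 of the 1700 Cxcl2 UMIs (44.4%). The median cell had 41, 48 and 52.5 Cxcl2 UMIs, so that by the median cell the order of the mice was opposite to that of the CPM. For Il1b the median cell had 52.5, 50.5 and 21 UMIs, and EC-Foxc-DKO replicate 2 was lowest by both measures.

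Among the other cytokines, Cxcl3, which like Cxcl2 signals through CXCR2, was at 2923, 1862 and 5732 CPM, and Ccl4, a CC chemokine, at 1306, 2309 and 1983 CPM. These were carried by few cells: the top 3 cells of a mouse held 64.7 to 85.1% of the Cxcl3 UMIs and 77.8 to 87.1% of the Ccl4 UMIs. Csf1, the macrophage growth factor, had UMIs in 35.7% of the neutrophils against 0.437% of B cells. Tnf had UMIs in 3 of 16, 0 of 16 and 3 of 24 cells. Cxcl10, Ccl2, Il6 and Il10 had 0 UMIs in all 56 cells, which at 139459 UMIs in sum means they were not detectable at this depth.

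The neutrophils were a minor cell population but held a larger part of these transcripts. Of all UMIs in the cells under the mitochondrial limit, the 56 neutrophils held 19.8% of Cxcl2, 19.5% of Il1b, 14.8% of Csf1, 14.7% of Cxcl3 and 2.52% of Ccl4, beside their 0.0959% of all UMIs. In monocyte/macrophage cells Cxcl2 was at 3931, 1878, 2646 and 5493 CPM and Il1b at 2293, 1162, 1452 and 2373 CPM (Control replicates 1 and 2, EC-Foxc-DKO replicates 1 and 2), below every neutrophil value. Osm, the cytokine oncostatin M, showed no such gap, at 580, 546 and 530 CPM in neutrophils and at 572, 82.7, 547 and 561 CPM in monocyte/macrophage cells. Since genes of these cells chose the neutrophils, these values are a description.

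**Figure D2:**
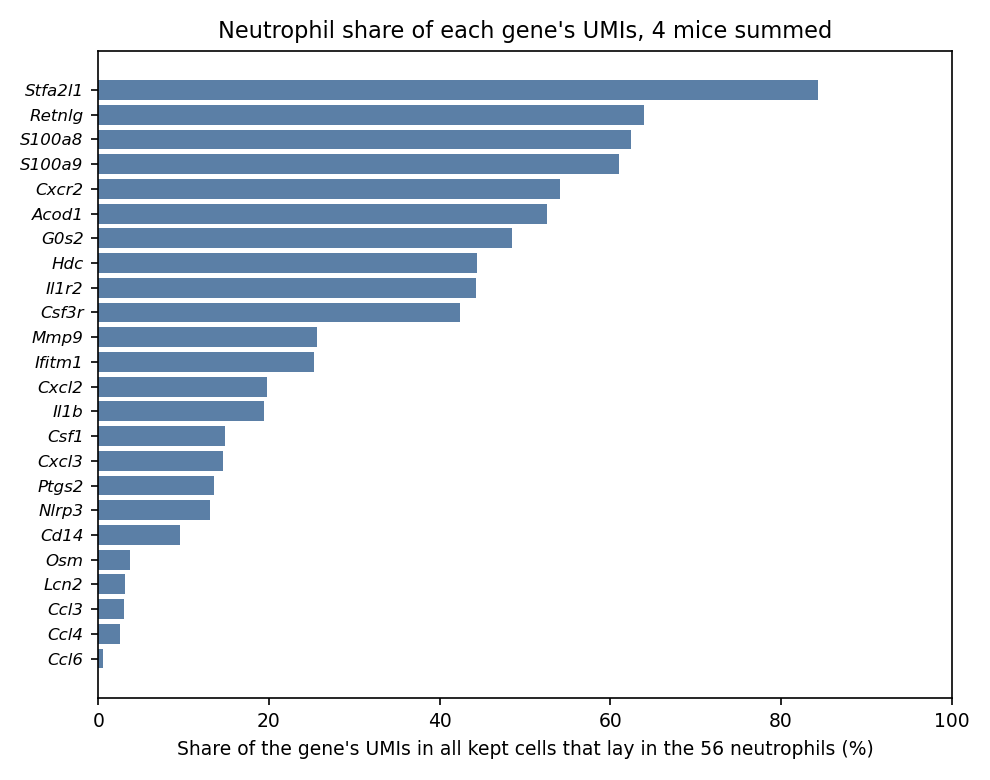
Bars give, for each gene on the y axis, the share (%) of its UMIs in all 10376 cells under the mitochondrial limit that lay in the 56 neutrophils, summed over the 4 mice. Stfa2l1 (84.3%), Retnlg (63.9%) and the rule's own genes S100a8 (62.4%) and S100a9 (61.0%) lead, Cxcl2 and Il1b are near 20%, and Ccl6 is lowest at 0.597%.

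Receptors for attractants and growth factors were broadly present, with 18 of the 19 genes of the list detected. Ccrl2, an atypical receptor that binds chemerin, was at 2757, 1713 and 1571 CPM and had the highest mean of the list, although Il1r2, given above, was higher in both EC-Foxc-DKO mice. Ccr1, a CC chemokine receptor, was at 829, 819 and 982 CPM and C5ar1, the receptor of complement fragment C5a, at 415, 497 and 510 CPM. The formyl peptide receptor Fpr2 was at 145, 298 and 510 CPM. Cxcr4, the receptor of CXCL12, which retains neutrophils in the marrow and rises as they age, was at 622, 248 and 118 CPM with 30, 10 and 6 UMIs. Cxcr4 had its highest level in the Control mouse but did not pass the test (log2 fold change -1.52, SE 0.709, edgeR adjusted p = 0.723), and after thinning the share of neutrophils with a Cxcr4 UMI was 13.8%, below the 23.7% of B cells. Ackr3, the scavenger receptor for CXCL12, had 0 UMIs.

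The granule lists differed in their summed levels, but genes within a list differed widely too and no test compared the lists. The primary granule list summed to 0, 99.3 and 19.6 CPM, the specific granule list to 2280, 2458 and 5889 CPM and the list of gelatinase granules and secretory vesicles to 6695, 8045 and 24910 CPM. Of the 6 primary granule genes, made earliest in the marrow, Mpo, Elane and Ctsg had 0 UMIs and Prtn3, the serine protease proteinase 3, was the only gene detected, with 0, 4 and 1 UMIs. Of the specific granule genes, Lcn2, which encodes the iron-siderophore binder lipocalin-2, was at 1410, 1415 and 4613 CPM, Chil3, a chitinase-like protein, at 394, 497 and 216 CPM, and Lyz2, the macrophage and neutrophil lysozyme, at 456, 124 and 255 CPM. Camp, the cathelicidin precursor, had 0 UMIs and Ltf, of the same list, had 1 UMI in each mouse. In the third list Slpi, a protease inhibitor, was at 2425, 2160 and 1649 CPM and Hp, haptoglobin, at 1078, 2508 and 1413 CPM. Mmp9, gelatinase B, was at 1182, 2036 and 1217 CPM. Retnlg, also of that list, varied far more and gave 19297 of the 24910 CPM in EC-Foxc-DKO replicate 2. Mmp25 of the same list had 0, 1 and 0 UMIs.

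**Figure D3:**
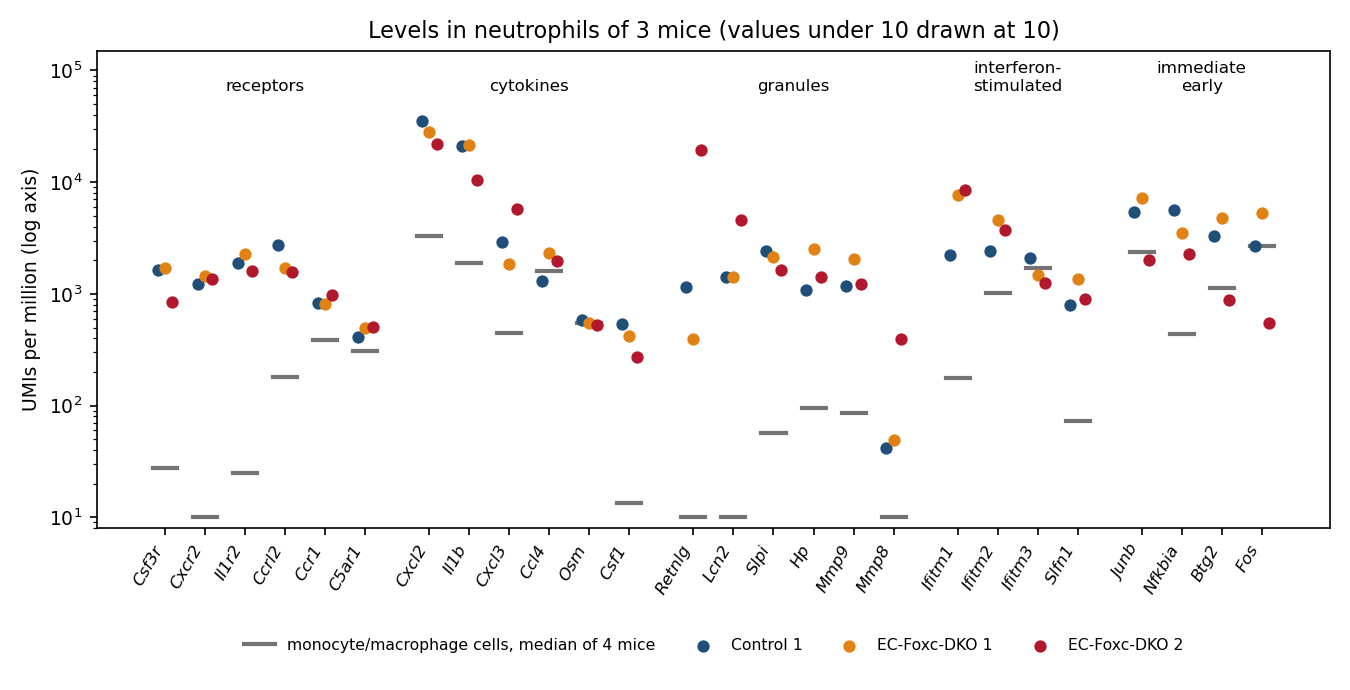
Points give the level of each gene in the neutrophils of 1 mouse (CPM, log axis), in Control replicate 1, EC-Foxc-DKO replicate 1 and EC-Foxc-DKO replicate 2, and gray bars the median of 4 mice in monocyte/macrophage cells; values under 10 are drawn at 10. Cxcl2 and Il1b are the highest genes shown in Control replicate 1, Cxcr2 and Osm hardly differ between mice, and Retnlg, Mmp8 and Lcn2 stand highest in EC-Foxc-DKO replicate 2.

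Retnlg, a resistin-like secreted protein of mouse neutrophils (chromosome 16, 48872621 to 48874496) set 1 library apart. Its level was 1161, 397 and 19297 CPM in the 3 mice, from 56, 16 and 983 UMIs. The EC-Foxc-DKO mice lay on both sides of the Control mouse. Cells with 10 or more Retnlg UMIs numbered 2 of 16, 0 of 16 and 12 of 24, a limit set after the values were seen. In EC-Foxc-DKO replicate 2 these 12 cells held 60.7% of all neutrophil UMIs but 99.6% of the Retnlg UMIs and 90.7% and 90.1% of the S100a8 and S100a9 UMIs.

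The same 12 cells held most of a set of further neutrophil transcripts. They held all 20 Mmp8 (neutrophil collagenase) UMIs, all 13 Ngp (neutrophilic granule protein) UMIs and all 13 Lyz2 UMIs of that mouse, 84 of 86 Ifitm6 UMIs, 20 of 22 Fpr1 UMIs and 23 of 25 UMIs of Prok2, the chemokine-like prokineticin-2. Ifitm1 was at 12610 CPM in them and at 2348 CPM in the other 12 cells of the mouse, and Wfdc21 at 3589 and 650 CPM. Other genes did not follow this division: Cxcr2 was at 1358 and 1349 CPM, Cxcl2 at 20820 and 24080 CPM, and Il1b was lower in the Retnlg-rich cells, at 8342 and 13940 CPM. Junb, a component of AP-1, was also lower in them, at 1164 and 3348 CPM. The Retnlg-rich cells were somewhat deeper, with a median of 2430 against 1460 UMIs, and had a median mitochondrial share of 15.2% against 17.8%. The part of depth in this division was not tested.

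**Figure D4:**
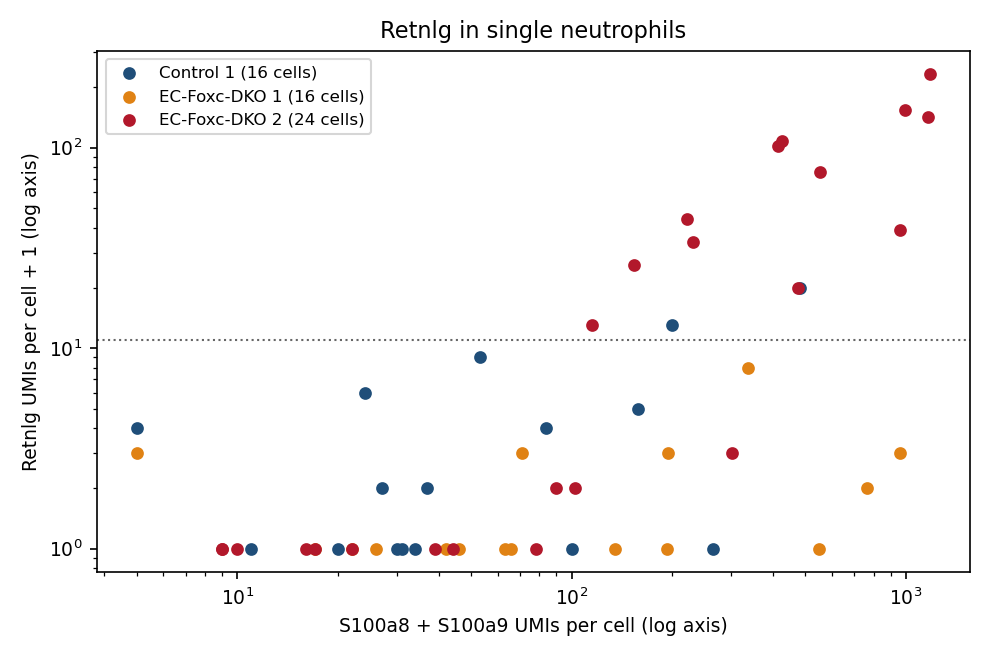
Each point is 1 neutrophil, with its summed S100a8 and S100a9 UMIs on the x axis (log scale) and its Retnlg UMIs plus 1 on the y axis (log scale), colored by mouse; the dotted line marks 10 Retnlg UMIs. The 12 cells of EC-Foxc-DKO replicate 2 above the line have over 100 S100 UMIs each, while several cells of EC-Foxc-DKO replicate 1 with as many S100 UMIs have 7 or fewer Retnlg UMIs.

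Genes for adhesion and for the respiratory burst were steadier. Cd44, a hyaluronan receptor, was at 767, 621 and 1315 CPM, Selplg, which encodes the selectin ligand PSGL-1, at 933, 869 and 589 CPM, and Itgam, the integrin chain CD11b, at 663, 596 and 589 CPM. The oxidase genes Rac2, Cyba and Ncf4 were at 1264, 1390 and 1099 CPM, 995, 1068 and 942 CPM, and 953, 1043 and 766 CPM. Cybb, the catalytic subunit, had 1 UMI in each mouse. The oxidase list summed to 4975, 4891 and 3671 CPM, while its catalytic subunit was near the level of 1 UMI.

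Of the eicosanoid enzymes, Alox5ap, which presents arachidonic acid to 5-lipoxygenase, was at 1285, 1763 and 1688 CPM and Ptgs2, cyclooxygenase-2, at 1492, 1738 and 628 CPM. Ltc4s and Ptgs1 had at most 6 UMIs in any mouse. Of the genes listed for vessel growth and repair, Thbs1, the angiogenesis inhibitor thrombospondin-1, was at 622, 596 and 3062 CPM, Lgals3, galectin-3, at 477, 422 and 432 CPM, and Hif1a, the hypoxia-regulated factor, at 311, 199 and 393 CPM, while Vegfa had 5, 1 and 2 UMIs. Thbs1 thus was high in the same library as Retnlg, where 7 of the 12 Retnlg-rich cells and 6 of the other 12 had Thbs1 UMIs, although the Retnlg-rich cells held 123 and the others 33 of these UMIs (3977 and 1649 CPM).

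Pattern recognition genes were led by Cd14, the co-receptor for bacterial lipopolysaccharide, at 3648, 3873 and 3848 CPM, and all 9 genes measured had UMIs. Clec4e, the lectin receptor Mincle, was at 2094, 944 and 785 CPM, Clec4d at 746, 844 and 1355 CPM and Trem1, an amplifier of inflammatory signals, at 850, 745 and 923 CPM. The transcription factor Cebpb, which drives emergency granulopoiesis, was at 3731, 4171 and 4515 CPM, Spi1 (PU.1) at 850, 1043 and 609 CPM, Cebpd at 497, 894 and 196 CPM and Xbp1 at 166, 323 and 628 CPM. Cd14 and Cebpb differed little over the 3 mice, whereas Clec4e was highest in the Control mouse.

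Of the interferon-stimulated genes, Ifitm1 was at 2218, 7747 and 8579 CPM, Ifitm2 at 2425, 4569 and 3750 CPM, Ifitm3 at 2114, 1490 and 1256 CPM, and Slfn1 at 788, 1366 and 903 CPM. The first 3 encode membrane proteins that restrict viral entry. Ifitm1 and Ifitm2 were lowest in the Control mouse and Ifitm3 was highest in it. Over the whole list, 12 of 19 genes were highest in the Control mouse, among them Isg15, a ubiquitin-like modifier, at 871, 422 and 236 CPM. Of the 7 that passed the filter on low counts 3 were, beside 46.8% of all genes that passed.

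Immediate early genes, which respond within minutes to many stimuli, were listed with genes of NF-κB feedback, and 19 of the 23 genes of the list that passed the filter on low counts were lowest in EC-Foxc-DKO replicate 2. That library was lowest for many other genes too: of all 939 genes that passed, 54.8% were lowest in that mouse, and so were all 5 oxidase genes that passed. It is the library with the median mitochondrial share of 16.9% and 618 genes per cell, whose part in the difference was not tested. Fos was at 2695, 5338 and 550 CPM, Junb at 5452, 7225 and 2022 CPM and Btg2, an antiproliferative gene, at 3275, 4792 and 883 CPM, with the EC-Foxc-DKO mice on both sides of the Control mouse. Nfkbia, the inhibitor that NF-κB induces against itself, was at 5680, 3526 and 2258 CPM. Ier3, an early response gene, went the other way and was highest in that library, at 1140, 1167 and 1845 CPM. The sum of the 25 genes of this list was 39780, 41420 and 18350 CPM. Of the 8 survival and cell death genes that passed the filter, 7 were highest in EC-Foxc-DKO replicate 1, beside 34.8% of all genes that passed and 4 of the 5 oxidase genes, so that nothing is read from the count about survival genes. Pim1, a survival kinase, was at 2674, 5115 and 2395 CPM, Gadd45b at 1969, 2756 and 569 CPM, Bcl2a1b at 497, 1142 and 550 CPM and Mcl1, the BCL2 family protein on which neutrophils depend, at 2197, 2880 and 2375 CPM.

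Glycolytic and chaperone genes were set beside the other cells of the same mice. Gapdh was at 871, 720 and 1335 CPM, Pkm at 767, 919 and 1040 CPM, Aldoa at 725, 372 and 746 CPM and Ldha at 477, 223 and 275 CPM. The 13 genes for glucose uptake and glycolysis summed to 3772, 2980 and 4378 CPM in neutrophils and to 4111, 3397 and 6183 CPM in all other cells of the same mice. Of the chaperones, Hspa8 was at 394, 745 and 491 CPM, Dnaja1 at 290, 596 and 177 CPM, Hspa5 at 435, 248 and 196 CPM and Hsp90aa1 at 269, 298 and 177 CPM, and the list's sum of 1720, 2160 and 1197 CPM lay below the 2539, 3707 and 5585 CPM of the other cells.

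The design compares EC-Foxc-DKO with Control mice and so asks whether neutrophil transcripts differ when endothelial Foxc1 and Foxc2 are deleted. Foxc1, Foxc2 and the Cre sequence had 0 UMIs in all neutrophils, which therefore do not check the genotype. In the other cells under the limit Foxc1 had 9 and 19 UMIs in Control and 7 and 4 in EC-Foxc-DKO mice, Foxc2 had 0 in all 4, and Cre had 0 and 0 in Control and 5 and 4 in EC-Foxc-DKO mice. The mouse was the replicate, so each gene's UMIs were added up over the neutrophils of a mouse. Since Control replicate 2 had no neutrophils, 1 Control mouse was compared with 2 EC-Foxc-DKO mice, and the lone mouse was assumed to vary like the others.

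In EC-Foxc-DKO mice Ccl5, Gzma and Olfm4 were called higher and Spp1 and Fn1 lower, 5 of 939 genes tested (0.532%; 0.319% higher and 0.213% lower), by edgeR's quasi-likelihood test at a Benjamini-Hochberg adjusted p under 0.05. Before adjustment 57 genes had a p under 0.05. Gzma is outside the rule for named genes, because EC-Foxc-DKO replicate 1 lay below the Control mouse, and is named because the calls were few. DESeq2 on the same sums called 0 genes (10 at an unadjusted p under 0.05), and edgeR called 0 with no filter on low genes (122 at an unadjusted p under 0.05).

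Spp1, osteopontin, and Fn1, fibronectin, are secreted matrix-binding proteins known from macrophages and stroma. Spp1 had 126 UMIs in the Control mouse against 0 and 6 in EC-Foxc-DKO replicates 1 and 2 (log2 fold change -4.96, SE 0.749, edgeR adjusted p = 5.64e-08). Fn1 had 23 UMIs against 0 and 0, at least 14.5-fold lower with the EC-Foxc-DKO group taken at 3 UMIs (edgeR adjusted p = 0.0115). A single Control cell held 124 of the 126 Spp1 UMIs and all 23 Fn1 UMIs. That cell had 3259 UMIs, 7 of S100a8, 17 of S100a9, 1 of Csf3r and 0 of the 11 monocyte and macrophage markers. Without it 0 genes were called lower and 4 were called higher.

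Ccl5 and Gzma, the chemokine RANTES and granzyme A, are known from T and NK cells. Ccl5 had 0 UMIs in the Control mouse against 2 and 78 in EC-Foxc-DKO replicates 1 and 2, at least 14.1-fold higher with the Control mouse taken at 3 UMIs (edgeR adjusted p = 1.70e-05). Gzma had 2 UMIs against 0 and 74 (log2 fold change 4.51, SE 1.02, edgeR adjusted p = 0.00364). A single cell of EC-Foxc-DKO replicate 2 held 78 of the 80 Ccl5 UMIs and 73 of the 76 Gzma UMIs, together with 7 Nkg7 and 2 Cd3e UMIs, which no other neutrophil had, and with 44 UMIs of S100a8 and S100a9. Without it 0 genes were called higher and 1, Spp1, lower. Gene by gene, 4 of the 5 calls therefore rested on 2 of the 56 cells.

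Olfm4, which marks a subset of neutrophils and also intestinal stem cells, was the called gene whose UMIs were least concentrated in 1 cell, with 40.0% of them in its top cell against 93.9 to 100% for the other 4. It had 0 UMIs in the Control mouse, 12 UMIs in 3 cells of EC-Foxc-DKO replicate 1 and 18 UMIs in 4 cells of EC-Foxc-DKO replicate 2, of which 12 lay in 1 cell, or at least 5.29-fold higher with the Control mouse taken at 3 UMIs (edgeR adjusted p = 0.0197). In all other cells under the limit it was at 6.20 and 181 CPM in Control replicates 1 and 2 and at 30.4 and 25.6 CPM in the EC-Foxc-DKO mice, below its 298 and 353 CPM in their neutrophils. With both single cells left out, Olfm4 was called (edgeR adjusted p = 0.0331) and with it Thbs1 higher and the ribosomal protein genes Rpl13a and Rps20 lower. Olfm4 missed the threshold without the deepest neutrophil of the Control mouse (edgeR adjusted p = 0.0852) and without the Gzma-rich cell alone (edgeR adjusted p = 0.119). Its fitted log2 fold change was 6.96 and 7.09 in these fits and 7.06 with all cells. It was 4.29 with no mitochondrial limit, where Olfm4 was not called (edgeR adjusted p = 0.988). Neither DESeq2 nor edgeR with no filter on low genes called it. Without EC-Foxc-DKO replicate 1 no fit was possible. A difference of log2 CPM with another prior count gave 3.51 there, which is not on the scale of the fitted values. The fitted value depends on the prior count, since the Control mouse had 0 UMIs. These alternatives without the Gzma-rich and Fn1-rich cells were chosen after seeing the data.

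**Figure D5:**
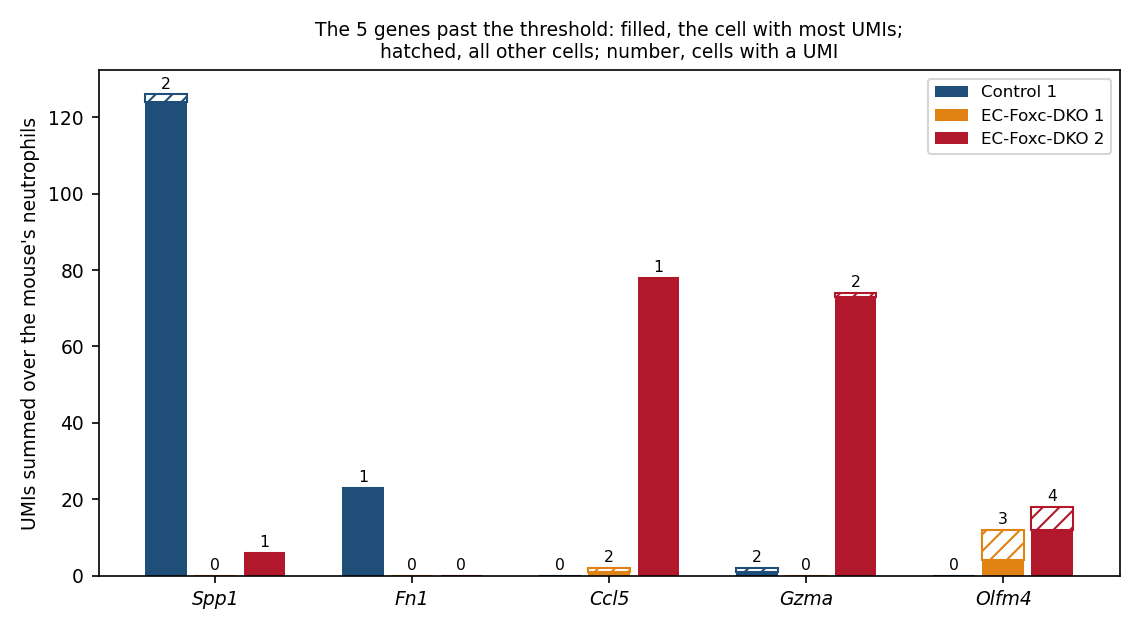
Bars give the UMIs of the 5 called genes summed over the neutrophils of Control replicate 1 (16 cells), EC-Foxc-DKO replicate 1 (16 cells) and EC-Foxc-DKO replicate 2 (24 cells); the filled part is the single cell with most UMIs, the hatched part all other cells, and the number above each bar the cells with a UMI. Nearly all of Spp1, Fn1, Ccl5 and Gzma comes from 1 cell per gene, whereas Olfm4 is spread over 7 cells.

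Of the 199 genes of the 17 neutrophil lists, 131 passed the filter on low counts, and 1 of them, Olfm4, was called. This is 1 of 131 beside 0.532% of all genes tested, so that lists of this size would hold few calls at that share and the absence of calls below says nothing about a list. The 131 genes, the 4 of the rule among them, had a median log2 fold change of 0.27, beside 0.01 over all 939 genes. The orders of the mice that follow use CPM scaled by the TMM factors of the fit, unlike the CPM given above. These factors were 1.21 for Control replicate 1, 1.07 for EC-Foxc-DKO replicate 1 and 0.773 for EC-Foxc-DKO replicate 2. In the identity list, with the 4 genes of the rule left out, both EC-Foxc-DKO mice lay above the Control mouse for 12 of 18 genes tested and below it for 2, beside 32.1% and 35.4% of all genes tested. In the list of immediate early and NF-κB feedback genes both lay above for 2 of 23 and below for 9, with a median of -0.26. In the cytokine list both lay above for 2 of 11 and below for 3. No gene of these 3 lists was called in either direction, and no gene of the receptor (18 tested), oxidase (5), adhesion (7), interferon-stimulated (7), survival (8) or pattern recognition (7) list was.

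Of genes that missed the threshold with a low p, Prdx1 (peroxiredoxin 1) was highest in the Control mouse and Prok2, Wfdc21 and Retnlg in EC-Foxc-DKO replicate 2. Changes given below without that mouse are differences of log2 CPM with another prior count, not fitted values. Prdx1 had 27, 0 and 3 UMIs (edgeR adjusted p = 0.0852). Retnlg had a log2 fold change of 3.55 (SE 1.10, edgeR adjusted p = 0.124), which turned to -1.37 when that mouse was left out. Wfdc21, with 18, 30 and 124 UMIs, had one of 2.48 (SE 0.739, edgeR adjusted p = 0.0882), which was 0.99 without that mouse, and Prok2 had 0, 0 and 25 UMIs (edgeR adjusted p = 0.0852). Thbs1 had one of 1.97 (SE 0.733, edgeR adjusted p = 0.384), which was 0.02 without that mouse. Cxcl2 (log2 fold change -0.22, SE 1.19) and Il1b (-0.17, SE 1.06) had errors larger than their change, with edgeR adjusted p of 0.997 for each.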

How the data were processed

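Single-cell libraries of the distal jejunum of 4 mice (2 Control, 2 EC-Foxc-DKO) were analysed. The authors deposited UMI counts per gene and barcode, not normalized, as 1 matrix of 32286 features per mouse. Cell Ranger (4.0.0 per the submitters' processing notes, another release in the study's methods) was run on mm10 with the Cre sequence added, and its filtered barcodes were used. A joined table of the 4 libraries was not used. No column was left without a sample.

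The Control libraries held 72046346 UMIs (replicate 1) and 15557181 UMIs (replicate 2), the EC-Foxc-DKO libraries 64781444 UMIs (replicate 1) and 38750638 UMIs (replicate 2). Cells with over 20% of UMIs on the 13 mt- genes were left out (the study's methods use 10%). Monocyte/macrophage cells (318) were kept cells with a Csf1r UMI and a UMI of Adgre1, C1qa, C1qb, C1qc, Cd68 or Fcgr1, without Epcam or Cd79a, and B cells (1372) had Cd79a and Ms4a1 UMIs. No doublet caller was run: the rule leaves out cells with Csf1r, Epcam or Cd79a UMIs, and an alternative left out cells over 3 times the median UMIs of their mouse. Of the barcodes, 51 occurred in 2 libraries, none of them in a neutrophil.

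UMIs were summed per mouse and tested with edgeR 4.0.16 (glmQLFit, glmQLFTest, filterByExpr, TMM) in R 4.3.3, at a Benjamini-Hochberg adjusted p of 0.05. The test was planned for 4 mice and had 3. Each SE was obtained by dividing the absolute log2 fold change by the square root of F. The code was tested on simulated counts. DESeq2 1.42.0 was an alternative. The edgeR p-values of the main fit measure the spread between the EC-Foxc-DKO mice, moderated over all genes, and none between Control mice. The p-values of the shares measure the spread between all 4 mice. The study's methods test single cells instead. Shares were compared by exact permutation (scipy 1.17.1) and thinned shares were computed at 500 UMIs per cell.

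Named are the genes of the rule, the 15 genes with the highest mean CPM (without mt-, ribosomal protein genes, Malat1 and Gm42418), the 4 highest of each of 17 neutrophil lists, called genes whose mice do not overlap (up to 12 per direction), Foxc1, Foxc2 and Cre. Further list members and Stfa2l1, Wfdc21, Ifitm6, Prok2, Prdx1, Nkg7 and Cd3e were named after their values were seen. Some genes that the rule would name are not reported here. The members, the lists and their tests were chosen with earlier results of these data known. Coordinates are those of GENCODE M21 on GRCm38.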

Additional observations from a re-analysis of the deposited data

Results flagged for a closer look

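Barcodes outside the neutrophil rule carried the same transcripts in EC-Foxc-DKO replicate 2 far more often than in the Control mice. In that mouse 39 barcodes over the mitochondrial limit met every other criterion, against 1 in each of the other 3 mice. Their median mitochondrial share was 30.6% and their median depth 1536 UMIs. Cxcl2 had UMIs in all 39 of them (20388 CPM), Il1b in 37 (11471 CPM) and Retnlg in 14 (3552 CPM, against 19297 CPM in the neutrophils of that mouse under the limit). Also in that mouse, 35 cells under the limit had 5 or more S100a8 and S100a9 UMIs but no Csf3r or Cxcr2 UMI, against 3 and 0 in Control replicates 1 and 2 and 3 in EC-Foxc-DKO replicate 1, and 31 of the 35 had an Epcam UMI.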

How the results depend on the processing

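The number of calls depended on the processing. Of 3 genes called higher and 2 called lower in EC-Foxc-DKO, edgeR called 3 and 1 with upper-quartile scaling, 1 and 1 with a mitochondrial limit of 10% (738 genes tested), 0 and 0 with no filter on low genes (7696 tested), and DESeq2 called 0 and 0. In alternatives chosen after seeing the data, 0 and 0 were called with no mitochondrial limit, which gave Control replicate 2 a library of 1 cell (25 at an unadjusted p under 0.05), 0 and 1 without the Gzma-rich cell, 4 and 0 without the Fn1-rich cell, 2 and 3 without both cells, and 4 and 2 with mt- genes left out, where Retnlg was also called (edgeR adjusted p = 0.00496). Without the deepest neutrophil, 2 and 2 were called. With an S100 minimum of 10 UMIs and without shared barcodes, 3 and 2 were called, as they were without Control replicate 2, which had no neutrophils. Without either EC-Foxc-DKO mouse no test was possible, since no residual degree of freedom was left, and without Control replicate 1 there was no comparison. As a difference of log2 CPM, not a fitted value, the change of Retnlg was -1.37 without EC-Foxc-DKO replicate 2 and 4.46 without EC-Foxc-DKO replicate 1. The signs of the 5 called genes held wherever they were computed. The difference in neutrophil share was 0.476 points, -0.121 at a mitochondrial limit of 10%, and 0.105 to 0.847 with 1 mouse left out, and the other alternatives were positive. The causes were not tested. The alternative without neutrophils with 2 or more epithelial UMIs left 4 cells and could not be fitted. No paired analysis was possible because Control replicate 2 had no neutrophils, so that a fit with the replicate number as a block left no residual degree of freedom. Depth limits the genotype comparison, which rests on 56 cells and 139459 UMIs of 3 mice, so that a gene without a call is not shown to be alike in both genotypes, whether its change is small or large.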
